A study of Mus musculus with 29 samples.

Results

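The comparison described here is that of the estrogen receptor β agonist LY3201 with no treatment in mouse cells labelled BERKO (ERβ knockout) at the matured neuron stage, labelled MN. Its members are the 2 arrays whose source label is MN BERKO with LY3201 and the 3 arrays whose source label is MN BERKO, 5 of the 29 arrays of the series. All cells derive from feeder-free mouse embryonic stem cells that were taken through neural precursors (NPC) and midbrain-patterned precursors (mDPC, grown with basic FGF, FGF8b, Shh and ascorbic acid) to the MN stage, which was kept in N2 medium with ascorbic acid. The treated group received 0.5 nM LY3201, and both groups carry the knockout label. The labels state DMSO as the vehicle and 4 days as the length of treatment for the NPC and mDPC stages, and the length at the MN stage is not given in the sources used here. The series' design text calls the samples of each group biological replicates, and it does not say how many knockout clones they come from. For reference, the 4 arrays labelled WT at the same stage (2 untreated, 2 with 0.5 nM LY3201) and the 4 arrays labelled BERKO at the mDPC stage (2 and 2) were used. RNA was measured on a whole-transcript array, so each gene has a log2 signal per array and no read depth. The number of arrays limits the precision.

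ERβ, encoded by Esr2, is a nuclear receptor that binds estrogen response elements in DNA when an agonist is bound, and LY3201 is an agonist selective for it over ERα, encoded by Esr1. In cells labelled as knockout for the receptor, the comparison asks which transcripts differ with the agonist all the same. 2 gene groups that recur below need a word of background. Interferons are secreted signals of antiviral defence, and cells that sense them turn on, through interferon-stimulated response elements in DNA, antiviral genes such as the Ifit family, guanylate-binding proteins and the antigen presentation machinery. Motile cilia are the beating organelles of ependymal and other multiciliated cells, built from axonemal dyneins, tektins and radial spokes on basal bodies that are amplified from deuterosomes.

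The receptor genes were examined first. Esr2 read 4.46, 4.23 and 4.35 in the untreated arrays and 4.26 and 4.38 in the treated ones, a difference of -0.03 (SE 0.11, adjusted p = 0.963). The arrays labelled WT at the MN stage read 3.41 and 3.34 untreated and 3.21 and 3.47 with LY3201, so Esr2 was higher, not lower, in the arrays labelled BERKO, which goes against the label. All these values lie below the 95th percentile of the array's negative control probes (6.63 to 6.79 in the 5 arrays) and near their median (3.75 to 3.83), and where the probes lie relative to the disrupted part of the gene was not examined, so the array gives no check of the knockout. The genotype therefore stands here as a label. Esr1 was as low, at 3.7, 3.62 and 3.8 untreated and 3.58 and 3.79 treated (difference -0.02, SE 0.08, adjusted p = 0.964).

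The labelled stage was set against marker lists. Of 19 pan-neuronal markers, 8 had an untreated mean above the 95th percentile of the negative controls, among them Map2 (12.13, 12.06 and 12.26 untreated) and Stmn2 (10.14, 10.72 and 10.67), while the mature neuronal genes Rbfox3 (3.91, 3.98 and 4.06), Snap25 (4.88, 4.86 and 4.87) and Nefl (3.80, 3.89 and 3.88) were not. Of 18 markers of midbrain dopaminergic cells, 3 were above it, and Th (3.19, 3.44 and 3.30), the enzyme that makes dopamine's precursor, and Pitx3 (3.04, 2.95 and 3.07) were among those that were not. Of 16 astrocyte markers, 13 were above it, and of 14 markers of ependymal cells and motile cilia, 11. The MN label is used below as the name of the stage.

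The 5 arrays did not fall into 2 sets by treatment. Across all tested genes, the smallest standard deviation of the differences between any pair of arrays was that between untreated array 2 and treated array 1 (0.218), against 0.237 to 0.264 among the 3 untreated arrays and 0.232 between the treated arrays. Untreated array 2 was closer to treated array 1 than to either other untreated array, so each main result is given below also without it. It was singled out for that closeness, so the results without it are descriptions and lend no independent support to the falls. Whether untreated array 2 differs for a technical reason was not tested.

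LY3201 was followed by few changes in the arrays labelled BERKO, and most of them were falls. Of 22063 genes tested with limma's moderated test over all 29 arrays, 76 (0.344%) differed at an adjusted p under 0.05. Of these, 66 (0.299%) were lower with the agonist, by 0.33 to 1.42 on the log2 scale, and 10 (0.0453%) were higher, by 0.37 to 1.25. Only 4 changed by 2-fold or more, namely Ifit3, Cdr1, Snora47 and Mir669e, and 36 by 1.5-fold or more. In all 66 lower genes both treated arrays lay below all untreated arrays, as they did in 3999 (18.1%) of the tested genes, and in all 10 higher genes both lay above, as in 2109 (9.56%). The median difference of all tested genes was -0.03. At an unadjusted p under 0.05 there were 1832 lower and 657 higher genes. In 26 of the 76 both group means lay below the 95th percentile of the negative controls in each of the 5 arrays, and in 40 both lay above it, so the smaller changes of dim genes rest on signal near background. In bulk RNA of this kind, fewer cells of a type and less RNA per cell cannot be told apart.

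**Figure D1:**
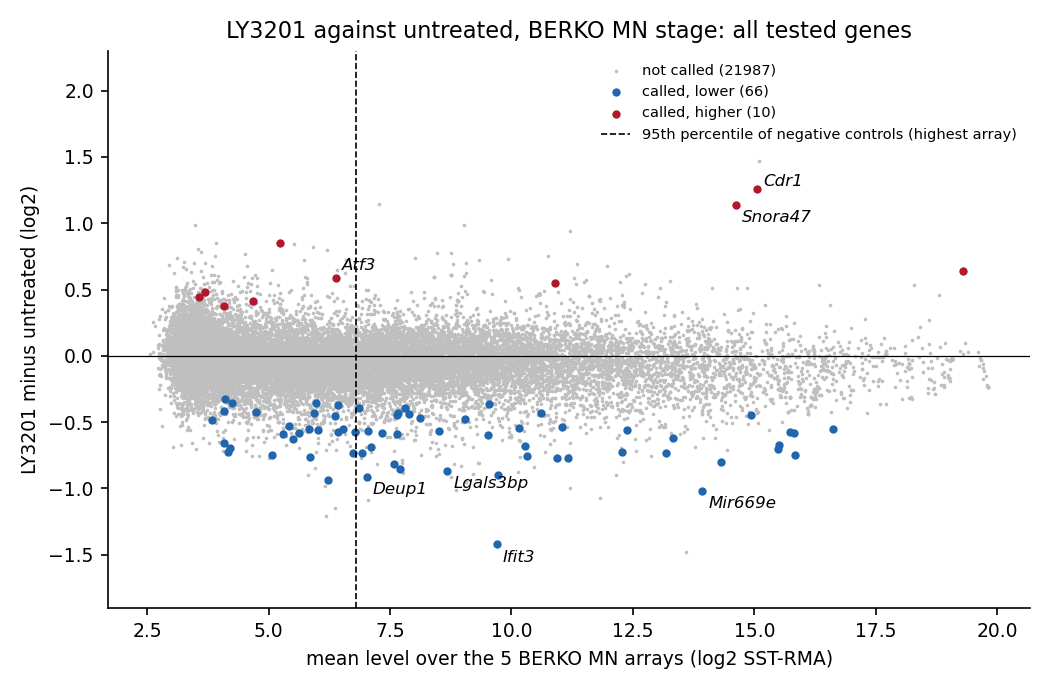
Difference between LY3201-treated and untreated arrays labelled BERKO at the MN stage (log2, vertical) against the mean level over the 5 arrays (log2 SST-RMA signal, horizontal), 1 point per tested gene. Blue points are the 66 genes called lower and red points the 10 called higher; the dashed line is the highest of the 5 arrays' 95th percentiles of negative control probes (6.79). Most called genes lie below 0. In 26 of the 76 both group means are below the lowest of the 5 arrays' percentiles (6.63), a stricter cut than the dashed line.

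How many genes passed depended on single arrays and on the arrays fitted together. Without untreated array 2 there were 307 called genes (1.39%), 265 lower and 42 higher, and 75 of the 76 were among them. That array was the lowest untreated one in 40 of the 66 lower genes, against 34.7% of all tested genes. The falls of those 40 grow by construction when it is left out. There were 23 calls without untreated array 1, 17 without untreated array 3, 16 without treated array 1 and 5 without treated array 2. With the 5 arrays fitted alone, or with the 9 MN arrays alone, no gene passed in limma's test, although 1993 and 1913 genes had an unadjusted p under 0.05, so the calls rest on a spread pooled over all stages. After quantile normalisation, 34 genes passed, 25 lower and 9 higher, a share of 73.5% lower against 86.8%. After quantile normalisation all 76 genes kept their sign; the other fits could not turn it, because the 2 groups do not overlap in any of the 76. Lgals3bp held its call in 9 of 11 alternative fits and Sorbs3 in 8, more than any other of 29 genes followed one by one.

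**Figure D2:**
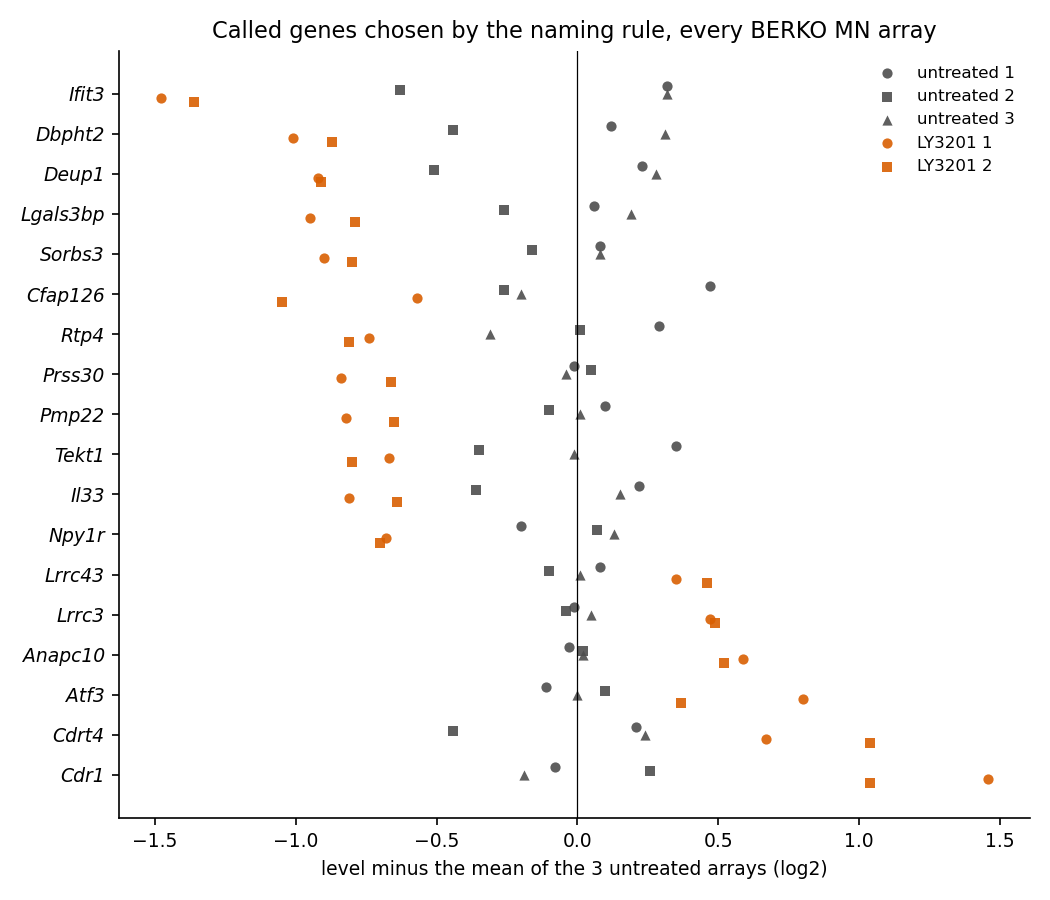
Level of each gene on each of the 5 arrays labelled BERKO at the MN stage, minus the mean of the 3 untreated arrays (log2, horizontal), for the 12 largest falls and the 6 rises chosen by the naming rule (vertical). Grey symbols are untreated arrays and orange symbols LY3201-treated arrays, 1 symbol per array. The colours do not overlap within any gene, and for Ifit3, Dbpht2, Deup1 and Il33 untreated array 2 (grey square) sits between the other untreated arrays and the treated ones.

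The largest fall was that of Ifit3, an interferon-induced antiviral protein with tetratricopeptide repeats. It read 10.58, 9.63 and 10.58 in the untreated arrays and 8.78 and 8.90 in the treated arrays. Both treated arrays were below every untreated array, and untreated array 2 was the lowest of the untreated ones. The difference was -1.42 (SE 0.22, adjusted p = 0.0107), a level 2.68-fold higher without the agonist. Over the alternative fits the difference ran from -1.74, without untreated array 2, to -1.26, with adjusted p between 5.78e-05 and 0.452. Gbp3, a guanylate-binding GTPase of the interferon response, read 6.03, 5.6 and 5.98 untreated and 5.21 and 5.36 treated (difference -0.58, SE 0.12, adjusted p = 0.0453). Its levels are below the 95th percentile of the negative controls.

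Of 22 interferon response genes on the list, 19 were measured and 18 tested. Ifit3 and Gbp3, 2 of the 18, passed, both lower, beside 0.344% of all tested genes. The list's median difference was -0.35 against -0.03 over all tested genes, and 16 of the 18 differences were negative, against 58.2% of those of all tested genes. Usp18, which trims Isg15 from proteins and dampens interferon signalling, read 7.07, 5.68 and 6.89 untreated and 5.48 and 5.66 treated, so untreated array 2 lay at the level of the treated arrays (difference -0.98, SE 0.25, adjusted p = 0.102). Ifit1 read 10.03, 8.55 and 10.15 untreated and 8.90 and 9.36 treated, so that untreated array 2 was the lowest of the 5 (difference -0.45, SE 0.33, adjusted p = 0.66). Untreated array 2 was the lowest of the untreated arrays in 17 of the 18 genes. In 15 of the 18 both treated arrays lay below untreated arrays 1 and 3. That count was not made over all tested genes and leaves out the array singled out above, so it has no background to be read against. In 7 of the 18 both treated arrays lay below all 3 untreated arrays, against 18.1% of all tested genes. Without untreated array 2 the count of called genes rose from 2 to 9, all lower, namely Ifit3, Usp18, Ifit1, Gbp3, Rsad2, Ifit2, Gbp2, Irf9 and Oasl2, with a list median of -0.48, beside 1.39% of all tested genes. Leaving out the lowest untreated array makes a fall larger by construction, so this rise in the count is no added support. After quantile normalisation 1 of the 18, Ifit3, passed (adjusted p = 0.0306) and the median was -0.30. The chemokine Cxcl10, also induced by interferon, did not follow, at 4.83, 4.26 and 4.87 untreated and 4.92 and 5.04 treated (difference 0.32, SE 0.20, adjusted p = 0.565). Only 7 of the 19 measured genes were above the 95th percentile of the negative controls without treatment.

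3 of the called genes outside the interferon list are known as interferon-induced; they were picked after their values were seen. Lgals3bp, a secreted galectin-binding glycoprotein, read 9.09, 8.77 and 9.22 untreated and 8.08 and 8.24 treated. Its difference of -0.87 (SE 0.11, adjusted p = 0.00518) had the smallest adjusted p of all genes. Rtp4, a receptor chaperone, read 6.45, 6.17 and 5.85 untreated and 5.42 and 5.35 treated (difference -0.77, SE 0.13, adjusted p = 0.0143). Lgals9, a galectin, read 6.68, 6.49 and 6.83 untreated and 6.03 and 6.16 treated (difference -0.57, SE 0.09, adjusted p = 0.0107). The groups did not overlap for any of these. Rtp4 was below the 95th percentile of the negative controls on every array, and both group means of Lgals9 were below the highest of the arrays' percentiles. Of the antigen presentation genes, 1 of 9 tested passed: Tapbp, tapasin, which loads peptides onto MHC class I, fell from 10.44, 10.11 and 10.54 to 9.67 and 9.98 (difference -0.54, SE 0.11, adjusted p = 0.0458), a call lost after quantile normalisation (adjusted p = 0.0974). The class I heavy chain H2-K1 read 7.35, 7.25 and 7.46 untreated and 6.98 and 7.08 treated (adjusted p = 0.0871), while B2m, its light chain, read 16.09, 16.36 and 16.40 and then 16.25 and 16.17 (adjusted p = 0.901). The median of the 9 was -0.13, with 7 negative, against 58.2% of the differences of all tested genes. All 5 tested complement genes had negative differences, with a median of -0.26, and none passed.

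The sequence upstream of the called genes was read from RefSeq's promoter table (build GRCm38.p6, 250 bases before to 50 bases after each gene's start), in which 45 of the 76 genes, 38 of them lower, had an entry. The interferon-stimulated response element was searched as GAAANNGAAA on both strands (TTTCNNTTTC on the other), with overlapping matches allowed. It was found near 4 of the 38 lower genes (10.5%), namely Ifit3, Gbp3, Lgals9 and Kcnab1, against 3.78% of the 13032 tested genes with an entry and 3.44% of all 32851 promoters in the table. Of the tested interferon list genes with an entry it was found in 11 of 15. The sequences of 3 of these genes are shown, 5′ to 3′ on the gene's strand and ending at the base before the start, with the matches in capitals. They are Ifit3 at chr19:34583279-34583528 (plus strand; matches at -156 to -147 and -122 to -113), Gbp3 at chr3:142559794-142560043 (plus strand; 2 overlapping matches at -45 to -36 and -39 to -30) and Lgals9 at chr11:78984925-78985174 (minus strand; a match at -55 to -46).
Ifit3: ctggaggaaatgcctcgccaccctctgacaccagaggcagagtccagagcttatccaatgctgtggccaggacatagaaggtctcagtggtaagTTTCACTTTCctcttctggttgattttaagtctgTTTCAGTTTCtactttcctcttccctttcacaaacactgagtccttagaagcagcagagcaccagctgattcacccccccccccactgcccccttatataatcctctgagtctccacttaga
Gbp3: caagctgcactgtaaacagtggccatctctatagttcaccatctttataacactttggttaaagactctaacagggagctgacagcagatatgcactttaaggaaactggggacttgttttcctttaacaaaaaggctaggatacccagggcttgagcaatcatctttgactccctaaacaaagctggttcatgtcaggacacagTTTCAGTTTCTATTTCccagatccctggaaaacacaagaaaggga
Lgals9: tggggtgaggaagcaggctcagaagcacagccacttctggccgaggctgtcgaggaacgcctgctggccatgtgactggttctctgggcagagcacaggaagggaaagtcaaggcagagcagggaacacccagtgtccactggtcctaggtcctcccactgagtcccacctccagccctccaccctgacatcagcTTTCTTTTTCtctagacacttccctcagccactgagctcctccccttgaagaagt

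The same search was made for the receptor's own element. The palindromic estrogen response element GGTCANNNTGACC was in none of the 45 called genes' promoters and in 0.07% of all promoters in the table. The half-site AGGTCA, searched on both strands, was in 6 of the 38 lower genes' promoters (15.8%) and in 16.3% of all promoters, so its share among the lower genes was near the background. The X-box, a DNA element known from ciliary genes, was searched in the same way. It was in none of the 45 called genes' promoters, against 0.652% of the 13032 tested genes with an entry. With so low a share, its absence from 45 promoters decides nothing. A match describes letters in this window and not a bound site.

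**Figure D3:**
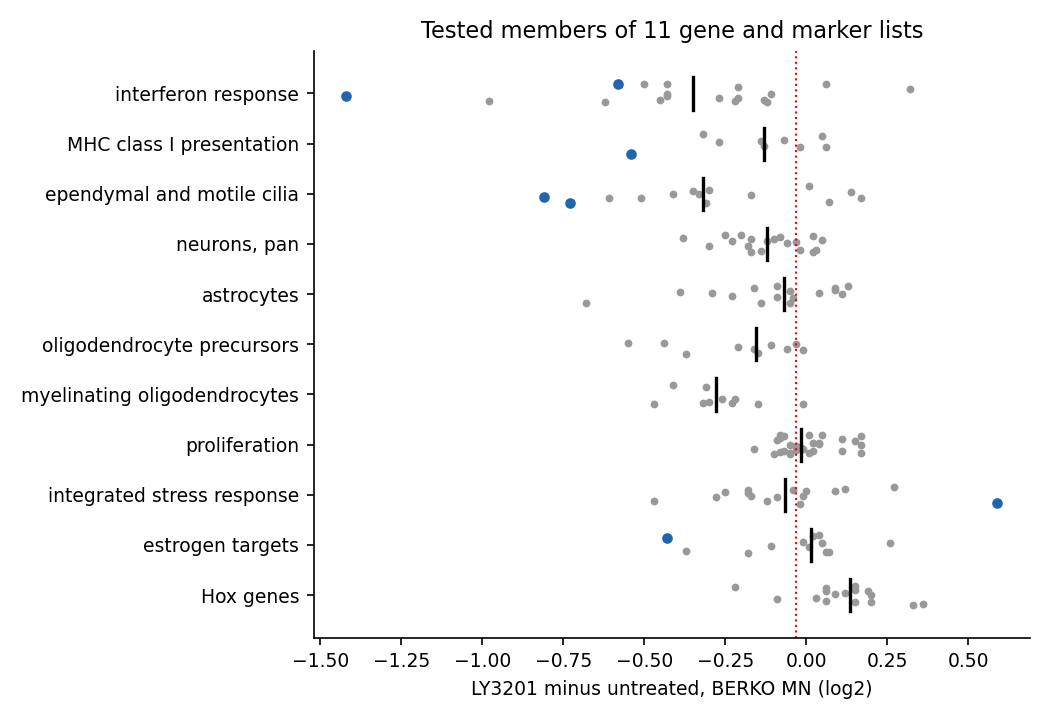
Difference between LY3201-treated and untreated arrays labelled BERKO at the MN stage (log2, horizontal) for the tested members of 11 gene and marker lists (vertical), 1 point per gene. Blue points passed at an adjusted p under 0.05, grey points did not, black bars are list medians and the dotted red line is the median of all tested genes (-0.03). The interferon (-0.35) and motile cilia (-0.32) medians lie lowest, and no list of those drawn has more than 2 called members.

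Genes of motile cilia were a further group with falls. Tekt1, a tektin of the ciliary axoneme, read 7.38, 6.68 and 7.02 untreated and 6.36 and 6.23 treated (difference -0.73, SE 0.15, adjusted p = 0.0375). Cfap126, a cilia and flagella associated protein, read 8.38, 7.65 and 7.71 untreated and 7.34 and 6.86 treated (difference -0.81, SE 0.15, adjusted p = 0.0267). These were the 2 called genes among 14 tested markers of ependymal cells and motile cilia, whose median difference was -0.32. Of the 14 differences 10 were negative, against 58.2% of those of all tested genes, of which 0.344% were called. Deup1, the core protein of deuterosomes, was called outside the list at 7.62, 6.88 and 7.67 untreated and 6.47 and 6.48 treated (difference -0.92, SE 0.15, adjusted p = 0.0143). Kif6, a kinesin, fell from 8.18, 7.56 and 7.92 to 7.26 and 7.33 (difference -0.59, SE 0.12, adjusted p = 0.0441), and Cfap69 from 7.96, 7.77 and 7.79 to 7.37 and 7.45 (difference -0.43, SE 0.08, adjusted p = 0.0245). Deup1, Kif6 and Cfap69 were named after their values were seen. Of these, Deup1 still passed after quantile normalisation (adjusted p = 0.0371), while Kif6 (adjusted p = 0.0834) and Cfap69 (adjusted p = 0.0583) did not.

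The axonemal dynein heavy chains on the list had differences close to 0 or above it. Dnah5 read 6.80, 6.18 and 6.46 untreated and 6.57 and 6.67 treated (difference 0.14, SE 0.11, adjusted p = 0.675), and the groups overlapped. Dnah9, Dnah11 and the central apparatus gene Spag6l had differences of 0.01, 0.17 and 0.07, and without untreated array 2 Dnah5, Dnah9, Dnah11 and Spag6l stood at -0.01, -0.14, 0.03 and -0.16, none passing. Untreated array 2 was the lowest of the untreated arrays in all 14 genes of the list. Without it, 5 of the 14 passed, all lower, namely Cfap126, Tekt1, Ccdc153, Tekt4 and Ak7, with a median of -0.58, beside 1.39% of all tested genes. Here too, leaving out the lowest untreated array lowers each difference by construction, so these calls are no added support. After quantile normalisation the median was -0.26 and none of the 14 passed. Both treated arrays lay below untreated arrays 1 and 3 in 10 of the 14 genes. This count, too, leaves out the array singled out above and has no background over all tested genes. Both treated arrays lay below all 3 untreated arrays in 3 of the 14, a share near the 18.1% of all tested genes. The part of untreated array 2 in this result and in that of the interferon list was not tested further.

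**Figure D4:**
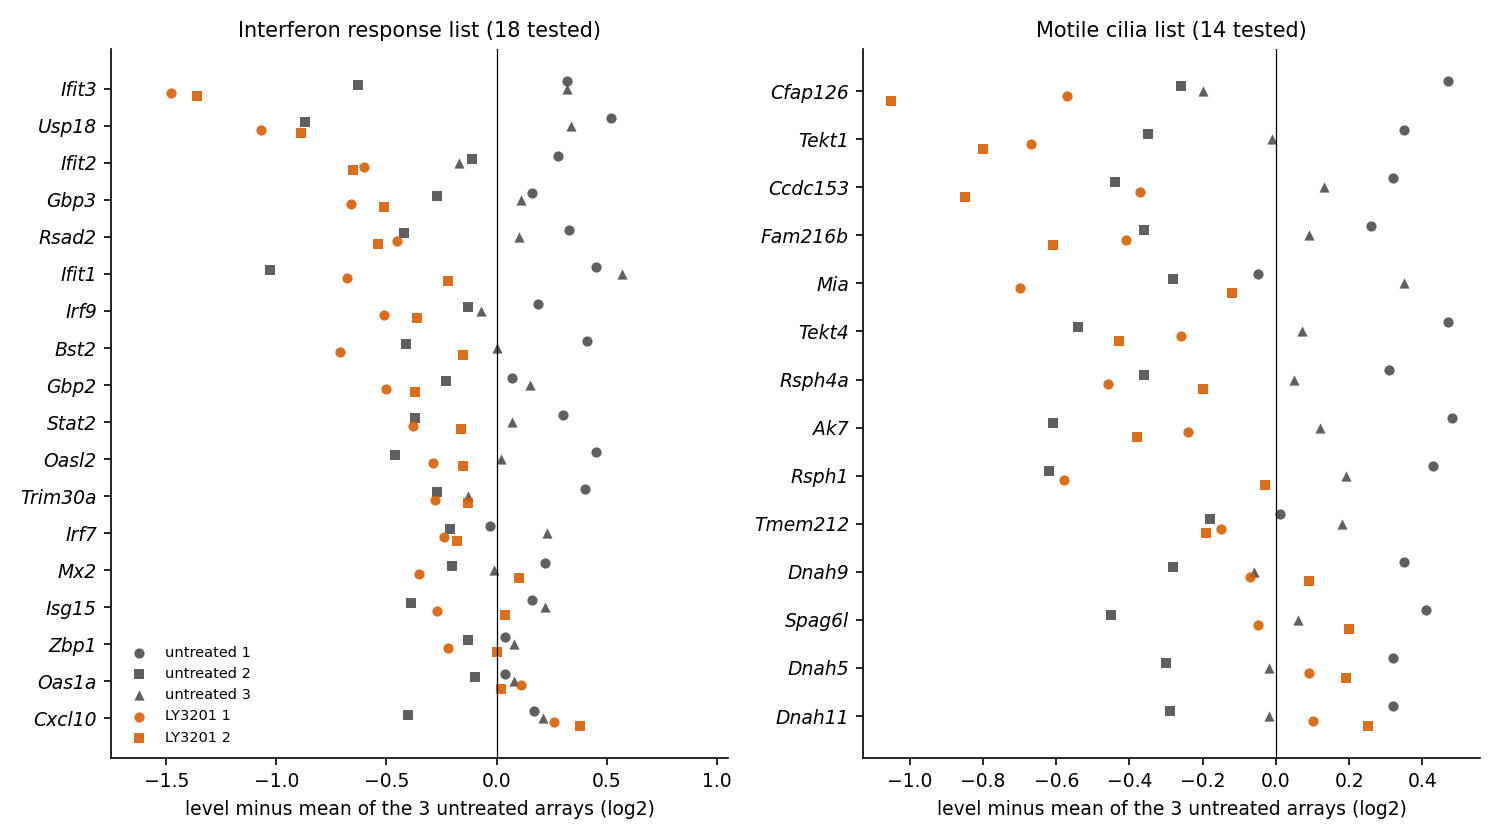
Level on each of the 5 arrays labelled BERKO at the MN stage minus the mean of the 3 untreated arrays (log2, horizontal) for the 18 tested interferon response genes (left) and the 14 tested motile cilia genes (right). Grey symbols are untreated and orange symbols LY3201-treated arrays. Untreated array 2 (grey square) is the lowest untreated array in 17 of 18 genes on the left and in 14 of 14 on the right, and for several genes it lies at or below the treated arrays.

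The other large falls were in genes of no list or of a list with a single call. Sorbs3, the adhesion adaptor vinexin, read 8.13, 7.89 and 8.13 untreated and 7.15 and 7.25 treated (difference -0.85, SE 0.11, adjusted p = 0.0066). Pmp22, a peripheral myelin membrane protein, read 13.58, 13.38 and 13.49 untreated and 12.66 and 12.83 treated (difference -0.74, SE 0.13, adjusted p = 0.0245). Pmp22 was far above the negative controls, while Sorbs3 in the treated arrays was close to their 95th percentile. For both genes the groups stood further apart than the arrays within each. Il33, an alarmin cytokine, read 7.44, 6.86 and 7.37 untreated and 6.41 and 6.58 treated (difference -0.73, SE 0.14, adjusted p = 0.0267). Dbpht2 fell from 6.71, 6.15 and 6.90 to 5.58 and 5.72 (difference -0.94, SE 0.17, adjusted p = 0.0245). Both Il33 and Dbpht2 had their lowest untreated value on array 2. Both group means of Dbpht2, and the treated mean of Il33, lay below the negative controls' 95th percentile. Prss30, a serine protease, and Npy1r, a neuropeptide Y receptor, fell by 0.75 and 0.69 from untreated means below the negative controls' 95th percentile. Npy1r read 4.29, 4.56 and 4.62 untreated and 3.81 and 3.79 treated. Plat, tissue plasminogen activator, was a bright gene with little spread, at 15.11, 15.07 and 15.15 untreated and 14.69 and 14.64 treated (difference -0.44, SE 0.09, adjusted p = 0.0422). It was named after its values were seen, as was Ttyh2, a transmembrane protein, which read 12.66, 12.51 and 12.63 and then 12.05 and 12.03 (difference -0.56, SE 0.11, adjusted p = 0.0265). Plat no longer passed after quantile normalisation (difference -0.37, adjusted p = 0.31). Pmp22 (adjusted p = 0.0764), Il33 (adjusted p = 0.0764) and Dbpht2 (adjusted p = 0.0583) lost their calls there as well, while Sorbs3, Prss30, Npy1r and Ttyh2 kept theirs.

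Few genes rose. Cdr1 showed the largest rise, from 14.48, 14.82 and 14.37 to 16.02 and 15.6 (difference 1.25, SE 0.23, adjusted p = 0.0245), a level 2.39-fold higher with the agonist. The Cdr1 locus also gives the circular antisense RNA Cdr1as, and the strand that the probes read was not examined. Atf3, a transcription factor induced by stress and by neuronal activity, read 6.04, 6.25 and 6.15 untreated and 6.95 and 6.52 treated (difference 0.59, SE 0.12, adjusted p = 0.0334). Atf3 was the only called gene among 16 of the integrated stress response and among 21 immediate early genes, 2 lists that share it. Ddit3 (difference -0.28, adjusted p = 0.464), Atf4 (0.12, adjusted p = 0.775), Fos (0.29, adjusted p = 0.802) and Egr1 (0.22, adjusted p = 0.719) did not pass. Anapc10, a subunit of the anaphase-promoting complex, rose from 10.65, 10.70 and 10.70 to 11.27 and 11.20 (difference 0.55, SE 0.12, adjusted p = 0.0463). Cdrt4 (difference 0.85), Lrrc3 (0.48) and Lrrc43 (0.41) rose at levels below the 95th percentile of the negative controls. Atf3's untreated and treated means (6.15 and 6.74) were also below the highest of the arrays' percentiles (6.79). Lrrc43 passed in 1 of its 10 alternative fits. Anapc10 (adjusted p = 0.0764) and Lrrc3 (adjusted p = 0.0794) no longer passed after quantile normalisation, while Cdr1, Atf3, Cdrt4 and Lrrc43 did.

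3 small RNAs were among the 76. Snora47, an H/ACA small nucleolar RNA, read 13.77, 14.46 and 14.30 untreated and 15.18 and 15.45 treated (difference 1.14, SE 0.24, adjusted p = 0.047). The array reads precursors as well as mature forms, so a microRNA's value here is that of its locus. Mir669e fell from 14.57, 14.09 and 14.36 to 13.59 and 13.05 (difference -1.02, SE 0.20, adjusted p = 0.0329), while the other probe set of that name, which read 3.91 and then 3.63 on average, differed by -0.28. Mir3473a rose from 19.01, 19.10 and 18.97 to 19.64 and 19.70 (difference 0.64, SE 0.13, adjusted p = 0.0391). These treated values are the highest gene values on those 2 arrays, a top shared with the mitochondrial ribosomal RNA gene mt-Rnr1, which is at the top of all 5 arrays, so the size of the rise is bounded by the top of the scale. Mir669e (adjusted p = 0.0578) and Mir3473a (adjusted p = 0.199) no longer passed after quantile normalisation, while Snora47 did. The mature sequence of mmu-miR-3473a is given by RefSeq at chrX:162874920-162874937 (GRCm38.p6, minus strand) and is shown with its seed, bases 2 to 8, in capitals.
mmu-miR-3473a: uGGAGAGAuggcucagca

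Pseudogenes made up 14 of the 66 falls, a share of 0.394% of the 3554 pseudogenes tested, and 50 protein-coding genes fell, 0.344% of the 14533 tested. Their untreated means ran from 9.75 to 16.83 and their falls from 0.55 to 0.90. After quantile normalisation 6 of the 14 no longer passed, among them Gm9242 (difference -0.38, adjusted p = 0.205), Gm8991 (-0.39, adjusted p = 0.333) and Gm6254 (-0.40, adjusted p = 0.18). Gm6161 read 15.68, 15.67 and 15.96 untreated and 15.17 and 14.97 treated, and Gm6397 read 15.68, 15.72 and 15.93 and then 15.18 and 15.03. These values move together over all 29 arrays (r = 0.998), and processed pseudogenes can share probe sequence with each other and with a parent gene, so the entries are not independent and their source transcript is uncertain. Over all 91 pairs of the 14 the median r was 0.646 and the lowest -0.617, across arrays that share their stages. No ribosomal protein pseudogene was called among 202 tested, of which 38 (18.8%) had both treated arrays below all untreated ones, near the 18.1% of all tested genes.

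The lists for the receptor's targets and for other responses to a foreign compound held little. Of 12 tested estrogen target genes, 1 passed: the growth factor Igf1 read 4.95, 4.91 and 4.89 untreated and 4.49 and 4.48 treated (difference -0.43, SE 0.08, adjusted p = 0.0267), at a level below the negative controls' 95th percentile. Igf1 no longer passed after quantile normalisation (adjusted p = 0.0972). The list's median was 0.02. Greb1, a classical estrogen target, read 4.31, 4.40 and 4.42 untreated and 4.40 and 4.49 treated (adjusted p = 0.727). None of 8 estrogen receptor and related genes, 10 xenobiotic response genes or 18 genes of cholesterol and fatty acid synthesis passed in limma's test, with 2, 1 and 1 at an unadjusted p under 0.05. Cyp1b1, a target of the aryl hydrocarbon receptor, read 10.70, 10.90 and 10.51 untreated and 10.70 and 11.04 treated (adjusted p = 0.772), and the groups overlapped.

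Markers of the cell types of these cultures showed no called change apart from the genes given above. None of 19 pan-neuronal, 16 astrocyte, 15 radial glia and progenitor, 10 oligodendrocyte precursor, 10 myelin or 28 proliferation genes passed. Their medians were -0.12, -0.07, -0.11, -0.16, -0.28 and -0.02. All 10 tested myelin genes had negative differences, although in none did both treated arrays lie below all untreated ones: Mbp read 6.61, 7.51 and 6.66 untreated and 6.38 and 6.83 treated (adjusted p = 0.567). Here untreated array 2 was the highest of the untreated arrays in 8 of 10 genes, and without it the median was -0.07. The Schwann cell and neural crest list held 1 called gene of 8, Pmp22. The 5 tested microglia and macrophage genes did not pass, and Cd68 read 5.07, 5.03 and 5.06 untreated and 4.72 and 4.82 treated (adjusted p = 0.345). Over the whole list, interferon response genes averaged 6.59, 6.0 and 6.47 in the untreated arrays and 5.92 and 6.09 in the treated arrays, and motile cilia genes 8.89, 8.19 and 8.63 and then 8.26 and 8.29, so by both averages untreated array 2 lay nearer to the treated arrays than to the other untreated ones.

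The same agonist and dose were also compared in the arrays labelled WT, where 403 genes (1.83%) passed, 343 higher and 60 lower. The WT label has 2 untreated arrays at this stage against 3 under the BERKO label, so the counts of calls are not on the same footing. Calls that are not shared do not by themselves show a different response. Of the 66 genes that fell in the arrays labelled BERKO, 38 (57.6%) also had a negative difference in those labelled WT, against 43.9% of all tested genes with a negative difference under the BERKO label. Of the 10 that rose, 5 were higher under the WT label as well, against 54% of all tested genes that were higher under the BERKO label. 2 of the 76 passed in both, the transmembrane protein gene Tmem255a in the same direction (differences of -0.54 and -0.72) and Nolc1, a nucleolar phosphoprotein gene, in opposite directions (-0.47 and 0.45).

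The difference between the effects under the 2 genotype labels was tested directly, as the effect under the BERKO label minus that under the WT label, and 139 genes (0.63%) passed, 131 lower and 8 higher. Among them were 20 of the 76; both tests use the same 5 arrays, so this count is a description. The arrays labelled WT differed among themselves in marker content: the pan-neuronal list averaged 7.01 and 8.44 in the untreated arrays and 6.91 and 7.73 in the treated ones. Their 28 proliferation genes had a median difference of 0.58 with LY3201, with 26 positive, and 4 of the 28 passed in the difference of effects, all lower under the BERKO label (list median -0.59). The part of these in the 139 genes was not tested. Ifit3 had the most negative value, -2.08 (SE 0.33, adjusted p = 0.0125). Under the WT label it read 6.78 and 6.62 untreated and 7.49 and 7.23 with LY3201, a higher level with the agonist and a lower one in all 4 arrays than in any MN array under the BERKO label. That difference under the WT label, 0.66, did not pass (adjusted p = 0.205). Lgals3bp likewise read 6.31 and 6.19 and then 6.70 and 6.55 (difference of effects -1.25, SE 0.16, adjusted p = 0.00315). Its difference under the WT label, 0.38, did not pass either (adjusted p = 0.125). S100a6, a calcium-binding protein, had a difference of effects of -1.35 (SE 0.24, adjusted p = 0.0222), which came mainly from the WT label: it read 6.41 and 6.26 and then 7.37 and 7.52 there, and 9.28, 8.75 and 9.11 and then 8.75 and 8.86 under the BERKO label. The pseudogenes Gm9027 (-1.77) and Gm7931 (-1.37) complete the 4 most negative. The 4 most positive were 1700027F06Rik (1.47), Gm22654 (1.33), Cdrt4 (1.32) and Gm12220 (0.96). Atf3 was also called, with a difference of effects of 0.90 (SE 0.17, adjusted p = 0.0281). Pseudogenes were 69 of the 139 (1.94% of those tested) and protein-coding genes 62 (0.427%).

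The count of 139 moved with single arrays and with scaling. It was 238 without WT untreated array 1, when 121 were higher and 117 lower, 32 without WT untreated array 2, 347 without WT treated array 1 and 18 without WT treated array 2. It was 260, 27, 21 and 20 without BERKO untreated arrays 2 and 3 and BERKO treated arrays 1 and 2. After quantile normalisation 9 genes passed, 2 higher and 7 lower, and in the fit of the MN arrays alone none passed in limma's test (2338 at an unadjusted p under 0.05).

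**Figure D5:**
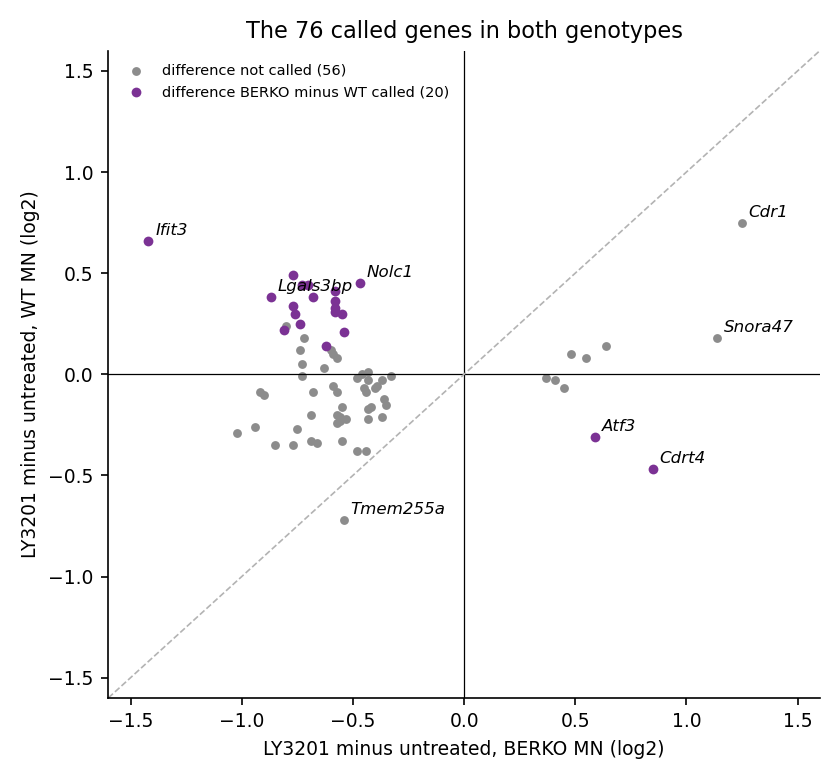
Difference between LY3201-treated and untreated arrays at the MN stage (log2) under the BERKO label (horizontal) and the WT label (vertical) for the 76 genes called under the BERKO label, 1 point per gene. Purple points are the 20 genes whose difference of effects passed at an adjusted p under 0.05, and the dashed line marks equal effects. The genes were chosen for their values on the horizontal axis, so their smaller spread on the vertical axis is no comparison of the genotypes. Ifit3 and Lgals3bp lie on opposite sides of 0 in the 2 genotypes, but their differences under the WT label did not pass.

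The agonist was also compared at the earlier stages of the cells labelled BERKO. The mDPC stage has 2 untreated arrays against 3 at the MN stage, so the counts of calls are not on the same footing: with 2 untreated arrays the MN stage gave 23, 307 or 17 calls, depending on the array left out. At the mDPC stage 25 genes (0.113%) passed, 13 higher and 12 lower, and none of the 76 was among them. In the neural precursors none passed in limma's test (1843 at an unadjusted p under 0.05). Of the 66 lower genes, 45 (68.2%) also had a negative difference at the mDPC stage, against 56% of all tested genes that were lower at the MN stage. Ifit3 was low there, at 4.38 and 4.35 untreated and 4.28 and 4.14 with LY3201, and so were Lgals3bp (4.36 and 4.01, then 4.00 and 4.13) and Deup1 (3.52 and 3.59, then 3.27 and 3.43). For these 3 genes the mDPC stage gave signal near that of the negative controls and therefore no measure of an effect.

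The difference between the MN and mDPC effects passed for 18 genes (0.0816%), 15 lower and 3 higher. It included 4 of the 76, namely Rtp4 (-1.01, SE 0.19, adjusted p = 0.0486), Gm13453 (-1.0, SE 0.18, adjusted p = 0.0486), Trp53i11 (-0.90, SE 0.16, adjusted p = 0.0427) and Il1rapl1, a synaptic adhesion gene (-0.86, SE 0.13, adjusted p = 0.0275). Rtp4 read 3.52 and 3.6 and then 3.69 and 3.91 at the mDPC stage, about as low as Deup1 there. For Rtp4 too, that stage therefore gave no measure of an effect. Il1rapl1 read 5.54, 5.76 and 5.6 and then 5.0 and 5.21 at the MN stage, and 4.74 and 4.84 and then 5.15 and 5.09 at the mDPC stage. The differences thus had opposite signs at the 2 stages, on signals below the 95th percentile of the negative controls. The difference at the mDPC stage, 0.33, did not pass by itself (adjusted p = 0.304). This count too rested on single arrays: it was 3 and 1 without mDPC untreated arrays 1 and 2, 2 and 4 without mDPC treated arrays 1 and 2, 29 and 5 without MN untreated arrays 2 and 3, and 0 and 3 without MN treated arrays 1 and 2. Without MN untreated array 1 the count was 13. No gene kept a call in limma's test when the compared groups were fitted alone (1660 at an unadjusted p under 0.05).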

How the data were processed

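The values are log2 expression values that the submitters deposited, made with SST-RMA in Affymetrix Expression Console 1.4 per the labels' description and the submitters' processing notes, one value per transcript cluster and array on Mouse Clariom D (MTA 1.0) arrays. The deposited values do not share one distribution, since the highest gene value differed between arrays. The genome build of the clusters is not given in the sources used here.

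Of 65956 clusters, 30604 had 1 gene symbol in the platform table, 2146 several and 33206 none; clusters with several were left out. Symbols were updated through RefSeq (827 changed). Each of 30142 genes was represented by its brightest cluster on average (355 genes had more than 1). Genes above the array's median in at least 2 arrays were tested (22063). limma 3.58.1 (R 4.3.3) fitted 14 group means to 29 arrays (15 residual degrees of freedom, 3.303 prior) with Benjamini-Hochberg adjustment, called at 0.05; SE is the moderated standard error. No batch was named in the labels, and replicate numbers follow accession order and pair no samples. The p-values measure the spread between these arrays. The fit was tested on simulated data.

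Genes named by rule are the 12 largest falls and up to 12 rises among called genes whose groups do not overlap, without small RNAs and predicted genes, up to 4 called members of any list with 3 or more (none had so many), the 4 largest differences between genotypes in each direction, Esr1 and Esr2. The 45 gene and marker lists and the comparison were chosen with earlier results of these data known. Alternatives were no filter, a filter at the 75th percentile, quantile normalisation, a trended robust prior, the compared groups or the MN arrays alone, clusters in place of genes, and each array left out.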

Additional observations from a re-analysis of the deposited data

Results flagged for a closer look

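For 26 of the genes that were followed, the effect of LY3201 under the BERKO label differed from that under the WT label. This is by limma's test of the difference itself (adjusted p under 0.05), which 139 of all 22063 tested genes (0.63%) passed. Negative values mean a lower response under the BERKO label. Gm9027, Gm7931, S100a6, Gm12220, Gm22654 and 1700027F06Rik were followed because of this same test, so their passing was fixed by the choice. After quantile normalisation 8 of the 139 still passed, Ifit3 and Gm12220 among them. S100a6, Cdrt4, Gm9027, Gm7931, Gm22654 and 1700027F06Rik did not. Among protein-coding genes the difference of effects was -2.08 for Ifit3, -1.35 for S100a6, -1.25 for Lgals3bp, -1.17 for Il33, -1.03 for Cfap126, -0.92 for Nolc1, -0.91 for Cebpzos, -0.90 for Gbp3 and -0.75 for Tapbp on the lower side, and 0.90 for Atf3 and 1.32 for Cdrt4 on the higher side.

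Among pseudogenes and noncoding or predicted genes it was -1.77 for Gm9027, -1.37 for Gm7931, -1.26 for Gm6851, -1.14 for Gm6161, -1.11 for Gm11196, -1.06 for Gm6397, -1.06 for Gm11914, -0.99 for Gm7551, -0.99 for Gm6254, -0.94 for Gm9242, -0.85 for Gm8991, -0.75 for Gm5915, 0.96 for Gm12220, 1.33 for Gm22654 and 1.47 for 1700027F06Rik.

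For 4 genes the effect at the MN stage differed from that at the mDPC stage under the BERKO label. The difference was -1.01 for Rtp4, -1.0 for Gm13453, -0.90 for Trp53i11 and -0.86 for Il1rapl1. The signal of Rtp4 at the mDPC stage was too low to measure an effect there. Genes were singled out after selection on the same 5 arrays, so these values describe them and do not test the selection again.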

How the results depend on the processing

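The counts of calls moved with the setting. None of the results followed reversed, but for the 76 genes only quantile normalisation could have turned a sign, since the other fits keep the difference or leave out an array of groups that do not overlap. Called genes numbered 51 without a filter, 99 with the 75th percentile filter, 74 with a trended robust prior, 34 after quantile normalisation, 28 with clusters in place of genes, and 0 with the compared groups alone or the MN arrays alone; leaving out 1 array gave 5 to 307. The difference between genotypes (139 genes) became 91 without a filter, 247 with the 75th percentile filter, 9 after quantile normalisation, 12 with clusters, and 0 in both fits of fewer arrays, with 18 to 347 when 1 array was left out; its 75th percentile filter moved the median of all genes to -0.113. The difference between stages (18 genes) became 5 without a filter, 6 after quantile normalisation, 1 with clusters and 0 with the compared groups alone, with 0 to 29 when 1 array was left out. With a trended robust prior, 113 genes passed in the difference between genotypes and 22 in that between stages. The latter counted 24 with the 75th percentile filter. Fits of fewer arrays have fewer residual degrees of freedom, and the cause of the other shifts was not tested. Of 29 genes followed one by one, 28 kept their call without untreated array 2, 7 without untreated array 1, 6 without untreated array 3, 2 without treated array 1, 3 without treated array 2, 13 after quantile normalisation and 21 without a filter. No paired analysis was possible because the labels give no replicate numbers that groups share.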

Other observations

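Classes of short RNA genes differed in their medians under LY3201 in the arrays labelled BERKO. Small nuclear RNA genes (767 tested) had a median difference of -0.15 and small nucleolar RNA genes (751 tested) one of 0.08, against -0.03 for all genes, and of these genes only Snora47 was called. Of 16 tested Hox genes 14 had positive differences, with a median of 0.13, and none passed; Hoxb2 read 5.11, 4.90 and 5.21 untreated and 5.38 and 5.49 treated (adjusted p = 0.267).

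Hspb1, Angptl4 and Timp1 had positive differences that did not pass, and the heat shock list as a whole had a median of 0.02, with 6 of 11 positive. Hspb1, a small heat shock protein, read 9.18, 9.20 and 8.72 untreated and 9.89 and 9.63 treated (difference 0.73, adjusted p = 0.215). Angptl4, a lipase inhibitor, read 5.24, 5.77 and 5.33 and then 6.17 and 6.17 (0.72, adjusted p = 0.206), and Timp1, a metalloprotease inhibitor, 8.61, 9.18 and 8.67 and then 9.55 and 9.33 (0.62, adjusted p = 0.147). Under the WT label these 3 genes differed by 0.77, 0.64 and 0.88 in the same direction. They were chosen after their values were seen.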
